A study of Homo sapiens with 3 samples.

Results

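The genes described here are 55 genes of mitosis, the spindle and cytokinesis, found by their symbols among 26209 symbols measured in HEK293 cells, a human line derived from embryonic kidney. All 55 were found and all 55 passed the filter for testing (average of 1 FPKM or more), which left 12577 genes. FPKM is the fragment count scaled by transcript length and by sequencing depth. They fall into 6 groups by role: 10 genes of mitotic entry, 9 of the spindle checkpoint and anaphase, 8 of the centromere, kinetochore and chromosomal passenger complex, 8 mitotic kinesins, 8 genes of spindle assembly and the mitotic chromosome, and 12 of cytokinesis and abscission. Polyadenylated RNA was sequenced in 3 libraries. The control library is labelled as HEK293 with no treatment. The other 2 are clones, numbered 114 and 174, with the genotype partial KANK1-KO. They were made with a plasmid that expresses Cas9 and a guide aimed close behind the KANK1 start codon, delivered by lipid transfection and followed by 3 days of culture. KANK1 encodes a scaffold protein of the cell cortex, and the series' title asks about centrosome aberrations, so the genes that build and divide the spindle are one place to look. Each edited library is a single clone, so an effect of the edit and a difference between clonal lines cannot be told apart. The edited alleles were not analysed here, and the labels do not say whether the libraries came from separate cultures on separate days. The p-values therefore speak only of these 3 libraries. The spread behind them is the difference between the 2 clones, joined with a variance pooled over all tested genes. No spread of the control was measured.

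Mitosis begins when CDK1, bound to its B-type cyclins, is switched on by phosphatases of the CDC25 family, with Polo and Aurora kinases acting beside it. Chromosomes attach to the spindle through kinetochores, and the spindle checkpoint withholds the ubiquitin ligase APC/C until all are attached. APC/C then destroys cyclin B and securin, separase opens the cohesin rings, and the cell is divided by a contractile ring and, last, by the ESCRT machinery. Many of these genes are transcribed mainly from late S phase to mitosis in dividing cells. That timing is set largely in the promoter, where the cell cycle homology region (CHR) is bound by MuvB complexes and the CCAAT box by NF-Y, and FOXM1 acts with the MuvB complexes. In bulk RNA a smaller share of cells in mitosis and less of a transcript per cell cannot be told apart.

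Promoters were read from RefSeq on build GRCh38.p14 (250 bases before to 50 bases after each gene's start, 300 bases in all), since the genes share a timing of transcription and the clones could differ in it. Each gene was read only at the first start listed for it, so a motif at any other start would be missed. The table held 47 of the 55 genes. The others were AURKA, FOXM1, BUB3, TTK, UBE2C, BIRC5, TPX2 and RACGAP1. Shown are the genes with the largest shared decrease and increase, CDC25C and CENPF, ranked by the smaller of the 2 clones' log2 differences, beside 4 core regulators, CDK1, CCNB1, CCNB2 and CDC20. Capitals mark the CHR, spelled TTTGAA or TTCGAA, and the CCAAT box, spelled CCAAT, searched on both strands, so that TTCAAA and ATTGG mark the same motifs on the opposite strand. Neighbouring motifs may share a base at their ends.
CDC25C: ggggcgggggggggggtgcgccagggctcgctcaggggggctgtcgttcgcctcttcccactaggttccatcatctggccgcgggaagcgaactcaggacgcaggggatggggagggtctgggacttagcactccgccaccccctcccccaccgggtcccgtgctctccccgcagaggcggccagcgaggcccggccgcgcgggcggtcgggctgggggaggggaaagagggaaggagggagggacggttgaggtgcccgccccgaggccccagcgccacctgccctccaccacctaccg
CENPF: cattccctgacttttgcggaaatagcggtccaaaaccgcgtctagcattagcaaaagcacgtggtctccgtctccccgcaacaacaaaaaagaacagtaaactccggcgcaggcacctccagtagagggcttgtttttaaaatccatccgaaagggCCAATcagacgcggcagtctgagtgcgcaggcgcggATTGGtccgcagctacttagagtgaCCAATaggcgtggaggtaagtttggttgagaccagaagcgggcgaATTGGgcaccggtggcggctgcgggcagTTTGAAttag
CDK1: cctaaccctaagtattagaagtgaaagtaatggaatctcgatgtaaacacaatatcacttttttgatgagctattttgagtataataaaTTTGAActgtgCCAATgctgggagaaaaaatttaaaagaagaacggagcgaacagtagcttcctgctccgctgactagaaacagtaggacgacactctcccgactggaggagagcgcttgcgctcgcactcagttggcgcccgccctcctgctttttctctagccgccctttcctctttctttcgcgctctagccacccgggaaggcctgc
CCNB1: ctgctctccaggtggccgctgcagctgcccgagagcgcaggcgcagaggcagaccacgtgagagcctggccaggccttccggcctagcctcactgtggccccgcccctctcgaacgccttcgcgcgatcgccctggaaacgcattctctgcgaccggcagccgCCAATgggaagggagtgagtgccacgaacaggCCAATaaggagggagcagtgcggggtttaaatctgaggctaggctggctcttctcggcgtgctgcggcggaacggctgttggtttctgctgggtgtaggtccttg
CCNB2: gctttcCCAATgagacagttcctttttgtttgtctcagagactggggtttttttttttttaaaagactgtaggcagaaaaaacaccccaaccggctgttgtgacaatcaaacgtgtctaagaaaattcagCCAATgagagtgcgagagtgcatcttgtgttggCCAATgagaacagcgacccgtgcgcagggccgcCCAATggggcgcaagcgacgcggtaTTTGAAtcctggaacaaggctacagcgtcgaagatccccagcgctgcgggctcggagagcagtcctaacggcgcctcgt
CDC20: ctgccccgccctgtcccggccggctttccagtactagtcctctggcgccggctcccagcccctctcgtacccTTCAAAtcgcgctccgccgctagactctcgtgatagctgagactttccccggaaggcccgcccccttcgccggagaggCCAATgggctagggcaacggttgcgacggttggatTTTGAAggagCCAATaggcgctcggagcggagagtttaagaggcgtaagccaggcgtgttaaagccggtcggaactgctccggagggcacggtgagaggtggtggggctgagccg
These windows lie at chr5:138338306-138338605 on the minus strand for CDC25C, and on the plus strand at chr1:214602945-214603244 for CENPF, chr10:60778081-60778380 for CDK1, chr5:69166900-69167199 for CCNB1, chr15:59104896-59105195 for CCNB2 and chr1:43358731-43359030 for CDC20. The CDC25C window held 0 matches to either motif, while the CCNB2 and CENPF windows each held 4 CCAAT boxes and 1 CHR. In CENPF the CHR lay after the start, and in CCNB2 and CDK1 before it. CDC20 held 2 of each motif, and CCNB1 held 2 CCAAT boxes and no CHR.

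A CHR was found in 31 of the 47 promoters (66.0%), against 16.6% of all 27305 promoters in the table and 10.5% of the 9523 promoters of tested genes. CCAAT boxes stood in 34 of the 47 (72.3%), against 35.7% and 37.1%. Both motifs together were present in 27 (57.4%), against 6.58% and 4.53%. For E2F elements, spelled TTTCGCGC, TTTGGCGC, TTTCCCGC or TTTGCCGC, the count was 3 of 47 (6.38%), near the 3.33% of all promoters and the 5.58% of tested genes. The CHR was most frequent in the checkpoint genes (5 of 6 promoters), the kinetochore genes (6 of 7) and the spindle genes (6 of 7), followed by the kinesins (6 of 8), and less so in the entry genes (3 of 8) and the cytokinesis genes (5 of 11). None of PDCD6IP, TSG101, CHMP4B, VPS4A, VPS4B and SPAST, the ESCRT-linked and microtubule-severing genes of abscission, held a CHR in its window. A match is a run of letters and was not tested as a site.

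**Figure D1:**
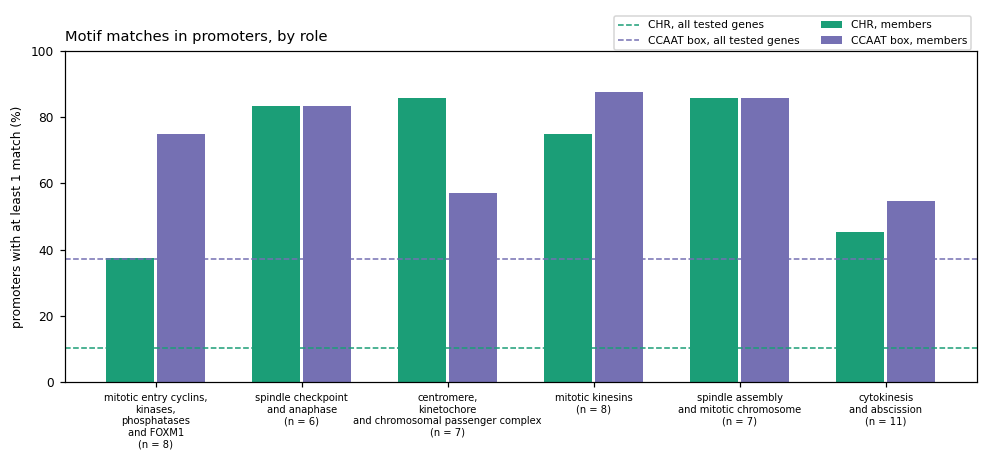
Bars give the percentage of promoters (vertical axis, %) of each role group with at least 1 match to the CHR or to the CCAAT box, with the number of promoters under each group, and dashed lines give the same for all tested genes. All CHR bars stand above the dashed line at 10.5%, the lowest being the entry genes with 3 of 8 promoters.

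Depth, estimated from the smallest steps in the FPKM and assuming fragments of 200 bases, lay between about 16400000 and 17000000 fragments a library, and 12330 to 12573 genes reached 1 FPKM. KANK1 itself was measured at 4.49 FPKM in the control against 3.63 (clone 114) and 3.43 (clone 174), a log2 difference of -0.28 (SE 0.40, limma adjusted p = 1.00), so its RNA did not separate the genotypes by this test. Of 8 kidney and neuronal genes listed for HEK293, 5 were at or above 1 FPKM in every library, among them the neuronal genes NEFL (26.0 to 54.6 FPKM) and INA (7.79 to 22.3 FPKM), while PAX8 and NEFM stayed under 1 in every library and PAX2 in 2 of the 3. Summed immune markers reached at most 0.367 FPKM, with PTPRC and CD3E listed at 0 in all libraries, and summed endothelial markers at most 0.420 FPKM, with PECAM1 at 0. The 5 fibroblast markers summed to 2.66 to 4.57 FPKM, nearly all of it COL1A1, with COL1A2 at 0.

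The mitotic genes were abundant in all 3 libraries. Their median was 48.6 FPKM (control), 47.3 (clone 114) and 46.8 (clone 174), against 11.8, 11.99 and 11.4 for all tested genes, and in the control 50 of the 55 stood above the median tested gene. In the control they ran from 3.69 FPKM for the kinesin KIFC1 to 253 FPKM for PTTG1, the gene of securin, and 12 of them exceeded 100 FPKM. Of every 10000 FPKM summed over all genes they held 71.8 in the control, against 73.4 (clone 114) and 78.8 (clone 174). Their share of the summed FPKM was thus highest in clone 174.

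**Figure D2:**
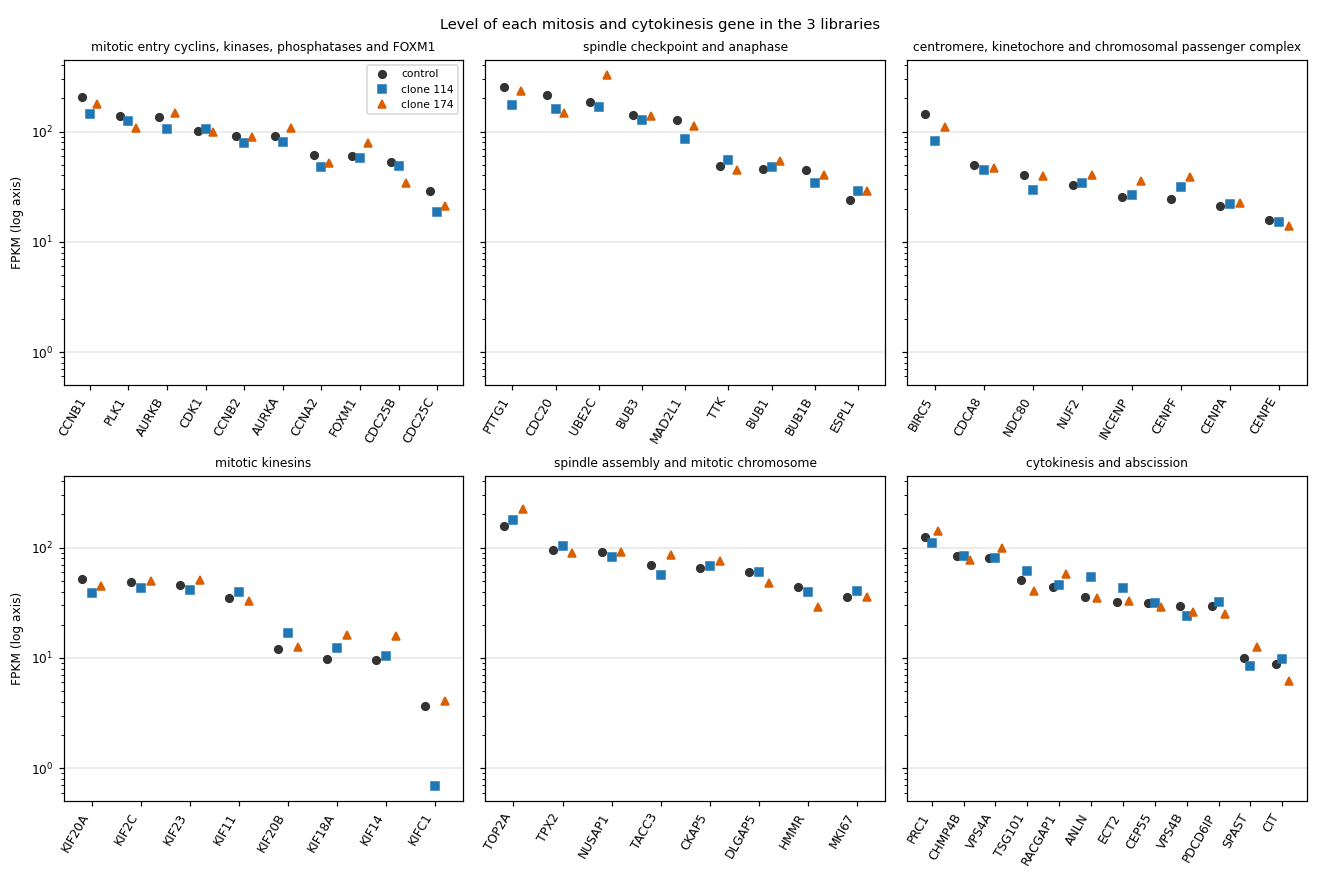
FPKM (vertical axes, logarithmic) of each of the 55 genes in the control (circles), clone 114 (squares) and clone 174 (triangles), 1 library each, in panels by role and ordered by the control level. For most genes the 3 symbols lie close together, KIFC1 in clone 114 (0.690 FPKM) lies far below the others, and UBE2C in clone 174 is the highest point at 329.6 FPKM.

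No mitotic gene differed between the clones and the control by the test. On log2(FPKM + 1), limma with Benjamini-Hochberg adjustment over all 12577 genes called 0 of the 55, where the background was 10 genes (0.0795%). The lowest unadjusted p of a mitotic gene was 0.114, for BIRC5, and 0 of the 55 were under 0.05, against 218 of all genes, 1.73%. All log2 differences below are on this scale, which understates the change of low genes, and every adjusted p given is from this fit. The fit has 1 residual degree of freedom and takes the single control to vary as a clone does, and an exact permutation of 3 libraries cannot go below p = 0.333, so small differences could not be detected.

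Counted by side alone, 22 of the 55 (40.0%) were lower than the control in both clones and 14 (25.5%) were higher in both, while 19 went opposite ways. Among all tested genes 31.8% were lower in both and 26.1% were higher in both. These sides depend on the scaling: with the libraries brought to the same summed FPKM, which moves the median of all genes up by 0.17 in clone 114 and 0.04 in clone 174, the split was 10 lower, 28 higher and 17 opposite, while 17.9% of all genes were lower in both and 41.4% higher in both. After quantile normalization, which left the median of all genes near 0, the split was 13, 23 and 19, while 29.1% of all genes were lower in both and 26.9% higher in both. Quantile normalization thus moved the split of the 55 but hardly that of all genes, and the cause was not tested. Sides that held under every scaling tried numbered 10 lower in both (CCNB1, CCNA2, CDC25C, BUB1B, MAD2L1, CDC20, PTTG1, BIRC5, KIF20A and VPS4B) and 14 higher in both. Equal sums and centring on the median of all genes both raise the clones against the control. A gene higher in both could therefore turn only with quantile normalization. Lower in both by more than the clones differed from each other were 11 (20.0%, background 20.7%). Higher in both by that measure were 5 (9.09%, background 15.6%), which were ESPL1, CENPA, CENPF, KIF18A and TOP2A. The median log2 difference of the 55 was -0.06 (clone 114) and -0.02 (clone 174), where all tested genes had -0.01 and -0.05.

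Few genes lay past 1.5-fold in a single clone, the limit being applied on log2(FPKM + 1). Clone 114 held 3 of the 55 that far below the control (5.45%, background 6.07%), namely CDC25C, BIRC5 and KIFC1, and 0 that far above it (background 7.09%); on FPKM with no pseudocount, ANLN was just past the limit above it, and 10.4% of all genes were. In clone 174 there were 2 below, CDC25B and HMMR (3.64%, background 7.28%), and 4 above, UBE2C, CENPF, KIF18A and KIF14 (7.27%, background 5.79%). The shares below the control in clone 114 and above it in clone 174 are near those of all genes, and the other 2 are lower than those of all genes. These backgrounds are not matched for level: 5631 of the 12577 tested genes averaged 1 to 10 FPKM, but only 2 of the 55 did. Shares at a matched level were not computed. With 1 library a side the shares carry no test.

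**Figure D3:**
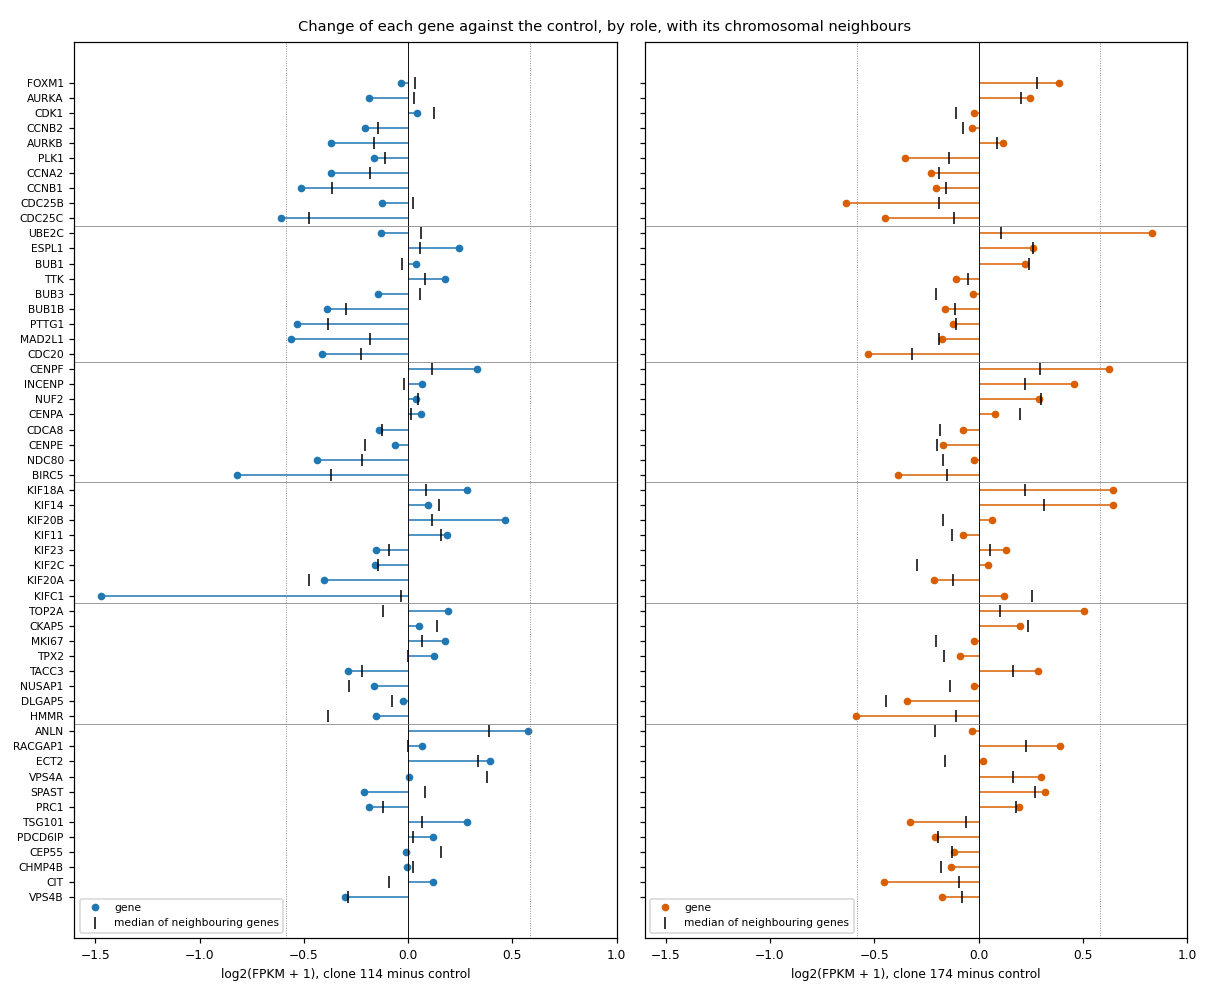
Difference of each gene from the control in log2(FPKM + 1) (horizontal axes), in clone 114 (left) and clone 174 (right), 1 library each, with genes grouped by role. Points are the genes, black ticks the median of up to 25 tested genes on each side along the chromosome, and dotted lines mark 1.5-fold. Most points lie on the same side of 0 as their tick, and KIFC1 in clone 114 (-1.47) is the farthest from 0.

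Among the genes of mitotic entry, 6 of 10 were lower than the control in both clones and 0 were higher in both, where all tested genes had 31.8% and 26.1%, with a median of -0.20 for clone 114 and of -0.12 for clone 174. With equal summed FPKM 3 were lower, 3 higher and 4 opposite, where 17.9% of all genes were lower and 41.4% higher. These backgrounds apply to the other role groups too. The entry genes had a median level of 91.4 FPKM in the control. All tested genes averaging 30 to 100 FPKM had medians of -0.12 and -0.09 in clones 114 and 174, and those over 100 FPKM had -0.25 and -0.16. CDC25C, the phosphatase that switches on CDK1, had 29.2 FPKM in the control, against 18.8 in clone 114 and 21.1 in clone 174. Both clones lay below the control by more than they differed, giving a log2 difference of -0.53 (SE 0.33, limma adjusted p = 1.00). CCNB1, the main mitotic cyclin, stood at 207 FPKM, 145 and 179.6 in the same order. For CCNA2, cyclin A2 of S phase and early mitosis, the values were 61.4, 47.3 and 52.3 FPKM, a log2 difference of -0.30 (SE 0.33, limma adjusted p = 1.00). These 3 were below the control in both clones under every scaling tried, though none passed the test.

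CDK1, the kinase that these cyclins activate, was at 102, 105 and 100.2 FPKM in the control, clone 114 and clone 174, which are within 3.08% of the control. CCNB2, the second B-type cyclin, was at 91.7, 79.2 and 89.7 FPKM, and its side in clone 174 turned under each other scaling. PLK1, the Polo kinase, was at 139, 124 and 109 FPKM. Its side held in clone 174 but turned in clone 114 with equal sums and with quantile normalization.

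Both Aurora kinases were lower in clone 114 and higher in clone 174 as deposited, though the side of AURKA in clone 114 turned with equal sums. AURKA, which works at the spindle poles, measured 91.2, 79.8 and 108 FPKM. AURKB, the kinase of the chromosomal passenger complex, measured 137, 106 and 148 FPKM, with no turn under any scaling. FOXM1, the transcription factor of late cell cycle genes, was at 59.6, 58.2 and 78.3 FPKM, so that it was near the control in clone 114 and higher in clone 174 by 0.39 on the log2 scale. CDC25B, which starts CDK1 activation at the centrosome, was at 53.6, 49.0 and 34.2 FPKM. It was 1 of the 2 genes past 1.5-fold below the control in clone 174.

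In the checkpoint and anaphase group, 5 of 9 genes were lower in both clones and 2 were higher in both, with medians of -0.15 and -0.11. With equal summed FPKM 4 were lower and 4 higher. CDC20, the activator of APC/C that the checkpoint restrains, was at 214 FPKM in the control, against 160.4 in clone 114 and 148 in clone 174. Its log2 difference was -0.47 (SE 0.33, limma adjusted p = 1.00), with both clones below the control under every scaling. BUB1B, which encodes the checkpoint protein BUBR1, was at 45.0, 34.1 and 40.2 FPKM. MAD2L1, the gene of the checkpoint protein MAD2, was at 128, 86.5 and 113 FPKM, lower by 0.56 in clone 114 and by 0.17 in clone 174 on the log2 scale. Checkpoint components did not share one pattern, since the kinase BUB1 was at 46.2, 47.5 and 54.0 FPKM and the kinase TTK at 48.3, 54.8 and 44.9. BUB3, the binding partner of BUB1 and BUBR1, was at 141, 127 and 138 FPKM.

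PTTG1, the separase inhibitor securin, was lower in both clones at 253, 175 and 232 FPKM; it has near-identical copies elsewhere in the genome, and the sources used here do not say how shared reads were counted. ESPL1, separase itself, was higher in both at 24.2, 28.8 and 29.1 FPKM, a log2 difference of 0.25 (SE 0.33, limma adjusted p = 1.00). The inhibitor and its target thus lay on opposite sides of the control in both clones. This held under every scaling, though only quantile normalization could have turned ESPL1. Their chromosomal neighbours lay on the same sides, with medians of -0.38 and -0.11 for PTTG1 and 0.06 and 0.26 for ESPL1 in clones 114 and 174. Beyond the neighbours PTTG1 was at -0.15 and -0.015, and ESPL1 at 0.19 and 0.00085, so in clone 174 both were level with them. UBE2C, the ubiquitin-conjugating enzyme of APC/C, was at 185 FPKM in the control, against 169 in clone 114 and 329.6 in clone 174. Its fold between the clones was 1.95, and the log2 difference of the clones from the control was 0.35 (SE 0.43, limma adjusted p = 1.00), with its side in clone 114 turning with equal sums and quantile normalization.

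Kinetochore and passenger genes split evenly, 4 lower and 4 higher in both clones, with medians of -0.01 and 0.03, and 1 lower and 5 higher with equal sums. BIRC5, the gene of survivin, which carries the passenger complex to the centromere, was at 145 FPKM in the control, against 82.0 in clone 114 and 111 in clone 174. Both clones were below the control by more than they differed, with a log2 difference of -0.60 (SE 0.35, limma adjusted p = 1.00). Its partners did not share that size: CDCA8, borealin, was at 49.3, 44.6 and 46.8 FPKM with sides that turned in both clones under equal sums, and INCENP, the scaffold of the complex, was higher in both at 25.5, 26.8 and 35.5 FPKM.

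CENPF, a large outer kinetochore protein, was at 24.6, 31.2 and 38.4 FPKM in the control, clone 114 and clone 174. The log2 difference of 0.48 (SE 0.33, limma adjusted p = 1.00) was the largest shared increase among the 55, by the smaller of the 2 clones' differences. CENPF kept its side with quantile normalization, the only scaling tried that could turn it. NDC80 and NUF2 encode partners in the complex that grips microtubule ends, and their values differed: NDC80 was at 40.2, 29.4 and 39.6 FPKM and NUF2 at 33.1, 34.0 and 40.7. NDC80 counts as lower in both, but its side in clone 174, at -0.02 on the log2 scale, turned under each other scaling. CENPA, the histone that marks the centromere, was nearly level at 21.3, 22.2 and 22.6 FPKM. CENPE, the kinetochore motor, was at 15.9, 15.2 and 14.01 FPKM, and its side in clone 114 turned with equal sums.

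Mitotic kinesins were higher in both clones for 3 of 8, lower in both for 1 and opposite for 4, with medians of -0.03 and 0.09, and with equal sums 6 were higher and 1 lower. KIF18A, which limits the length of kinetochore microtubules, was at 9.87 FPKM in the control, against 12.2 in clone 114 and 16.0 in clone 174, a log2 difference of 0.46 (SE 0.35, limma adjusted p = 1.00). KIF14, a cytokinesis kinesin that binds citron kinase, was at 9.67, 10.4 and 15.7 FPKM. KIF20B, which acts in late cytokinesis, was at 11.96, 16.9 and 12.6 FPKM. All 3 were above the control in both clones as deposited and with quantile normalization, the only scaling tried that could turn them. KIF20B was highest in clone 114, and KIF18A and KIF14 in clone 174.

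KIF20A, which brings the passenger complex to the central spindle, was the one kinesin lower in both, at 51.9, 39.0 and 44.6 FPKM. KIF11, the motor that pushes spindle poles apart, was at 34.9, 39.9 and 33.1 FPKM, and KIF2C, a microtubule depolymerase, at 48.6, 43.4 and 50.1. KIF23, the kinesin of centralspindlin, was at 45.9, 41.1 and 50.4 FPKM. For these 3 the clones lay on opposite sides of the control, and 1 side of each turned with equal sums.

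KIFC1, a minus-end motor that clusters extra centrosomes, had the largest difference between the clones, at 3.69 FPKM in the control, against 0.690 in clone 114 and 4.10 in clone 174. The fold between clones was 5.94, and the log2 difference from the control was -0.68 (SE 0.62, limma adjusted p = 1.00), or -1.06 with a pseudocount of 0.1. It was the lowest of the 55 in every library, and its clone 114 value rests on an estimated 6 to 29 fragments depending on the transcript length taken, against at least 271 for every other mitotic gene in every library. Genes beside it on chromosome 6 also gave uneven values. Of the 10 nearest tested genes, 3 differed by at least 2-fold between the clones, and 8 had a median under 10 FPKM. RPS18, a ribosomal protein gene, was at 6.72, 341 and 9.94 FPKM, and CUTA was at 1.32, 8.35 and 39.3. Whether the region's quantification has a part in the KIFC1 value was not tested.

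Of the 8 spindle assembly and chromosome genes, 3 were lower in both clones, 2 higher in both and 3 opposite, with medians of 0.01 and -0.02; with equal sums 0 were lower in both and 5 higher. TOP2A, the topoisomerase that untangles mitotic chromosomes, was at 156 FPKM in the control, against 178 in clone 114 and 222.5 in clone 174. Its log2 difference was 0.35 (SE 0.34, limma adjusted p = 1.00), and it stayed above the control in both clones with quantile normalization. CKAP5, the microtubule polymerase, was also higher in both at 65.3, 67.8 and 75.2 FPKM. HMMR, a spindle pole protein, was at 43.8, 39.3 and 28.9 FPKM, lower by 0.59 on the log2 scale in clone 174. DLGAP5, which stabilises kinetochore fibres, was at 60.7, 59.6 and 47.7 FPKM, and the sides of both in clone 114 turned with equal sums.

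TACC3, the partner of CKAP5 on the spindle, was at 69.6, 56.8 and 85.1 FPKM, so the clones stood on either side of the control. TPX2, the activator of AURKA, was at 95.2, 104 and 89.3 FPKM. NUSAP1, which bundles spindle microtubules, was at 92.2, 82.2 and 90.7 FPKM. MKI67, the Ki-67 protein that coats mitotic chromosomes and serves as a proliferation marker, was at 36.0, 40.8 and 35.4 FPKM. Ki-67 transcript was thus within 1.65% of the control in clone 174 and higher by 13.4% in clone 114.

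Cytokinesis and abscission genes were lower in both for 3 of 12, higher in both for 3 and opposite for 6, with medians of 0.04 and -0.08; with equal sums 1 was lower and 5 were higher. ANLN, the gene of anillin, the scaffold of the contractile ring, was at 35.7 FPKM in the control, against 53.7 in clone 114 and 34.9 in clone 174. The clone 174 to clone 114 fold was 0.649, with a log2 difference from the control of 0.27 (SE 0.36, limma adjusted p = 1.00), and its side in clone 174 turned under each other scaling. ECT2, the exchange factor that activates RhoA at the cell equator, was at 32.5, 42.9 and 32.9 FPKM, again highest in clone 114. RACGAP1, the centralspindlin protein that recruits ECT2, was at 43.9, 46.1 and 57.8 FPKM and highest in clone 174. The 2 genes that share a step were above the control in both clones as deposited and with quantile normalization, but peaked in different clones. In the other clone each was nearly level with the control as deposited. ECT2 was at 0.02 in clone 174 and RACGAP1 at 0.07 in clone 114, on the log2 scale.

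PRC1, which bundles the central spindle, was at 125, 109.7 and 143 FPKM. CIT, citron kinase of the midbody, was at 8.82, 9.67 and 6.18 FPKM, and CEP55, which recruits the abscission machinery, at 31.3, 31.2 and 28.8. PRC1 and CIT each had the clones on opposite sides of the control, in opposite orders, and PRC1 in clone 114 turned with equal sums and quantile normalization.

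TSG101, the ESCRT-I subunit that CEP55 recruits, was at 50.8 FPKM in the control, against 62.0 in clone 114 and 40.3 in clone 174. The clone 174 to clone 114 fold was 0.649, and the mean log2 difference from the control was -0.02 (SE 0.36, limma adjusted p = 1.00), near 0 because the clones lay on opposite sides. PDCD6IP, the gene of ALIX, which acts in parallel to ESCRT-I, had the same order at 29.3, 31.9 and 25.3 FPKM. CHMP4B, the filament-forming ESCRT-III subunit, was at 84.7, 84.3 and 77.3 FPKM. The ATPases that remodel those filaments differed, VPS4A being at 80.3, 80.7 and 99.2 FPKM and VPS4B at 29.8, 23.9 and 26.2. SPAST, the gene of spastin, which cuts midbody microtubules, was at 9.90, 8.43 and 12.6 FPKM.

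Between the clones, the mitotic genes leaned toward clone 174. It was above clone 114 for 36 of the 55 (65.5%), where 49.3% of all tested genes were, and the median log2 difference was 0.16, against -0.01 for all tested genes. Under the other scalings 33 to 36 of the 55 were above, with 42.6% to 52.9% of all genes. The median was 0.27 for the kinetochore genes and 0.25 for the kinesins, but -0.12 for the cytokinesis genes and -0.03 for the spindle assembly genes. Past 1.5-fold, clone 174 was higher for 2, UBE2C and KIFC1 (3.64%, background 8.08%), and lower for 2, ANLN and TSG101 (3.64%, background 11.9%), on log2(FPKM + 1). On FPKM with no pseudocount there were 3 each way, with KIF14 added above and CIT below, and 10.4% and 15.3% of all genes. Each side is 1 library, so this difference has no replicate check.

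Position on the chromosome went with much of what differed. Each gene was set beside the median of up to 25 tested genes on each side, in RefSeq order, with the 55 left out. In clone 114 the differences of the 55 genes followed those of their neighbours with a Pearson r of 0.65 (Spearman 0.76), or 0.80 (0.78) without KIFC1. In clone 174 the r was 0.77 (0.70), and between the clones 0.65 (0.65). For all 12447 tested genes with a position the r was 0.40, 0.48 and 0.47, and for the 3006 tested genes averaging 30 FPKM or more it was 0.52, 0.56 and 0.58, beside 0.81, 0.75 and 0.68 for the 42 mitotic genes at that level. These are correlations across genes within the same libraries. Genes are not independent replicates, and nearby mitotic genes such as CDC25C and KIF20A share most of their neighbours.

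Genes and neighbours stood on the same side of 0 for 42 of the 55 in clone 114 and 52 of the 55 in clone 174, where all genes did so in 66.0% and 77.7% and those averaging 30 FPKM or more in 67.4% and 84.7%. At that level 32 and 40 of the 42 mitotic genes did. On chromosome 5 the 5 mitotic genes, CCNB1, CDC25C, PTTG1, KIF20A and HMMR, were all lower in both clones as deposited, and with equal sums HMMR turned in clone 114. Their median was -0.51 for clone 114 and -0.22 for clone 174, beside -0.41 and -0.18 for all 562 tested genes of that chromosome. DLGAP5, at -0.34 in clone 174, lies on chromosome 14, whose 420 tested genes had a median of -0.47 there. For ANLN, at 0.58 in clone 114, the 603 tested genes of chromosome 7 had a median of 0.38. CENPF, NUF2 and KIF14, on chromosome 1, had neighbours at 0.30, 0.30 and 0.31 in clone 174. The other chromosome 1 genes, CDC20, KIF2C and CDCA8, had neighbours at -0.32, -0.30 and -0.19 there, with KIF2C itself at 0.04, and the 1245 tested genes of the chromosome had a median of -0.04. The part of chromosomal position in any single gene's value was not tested.

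**Figure D4:**
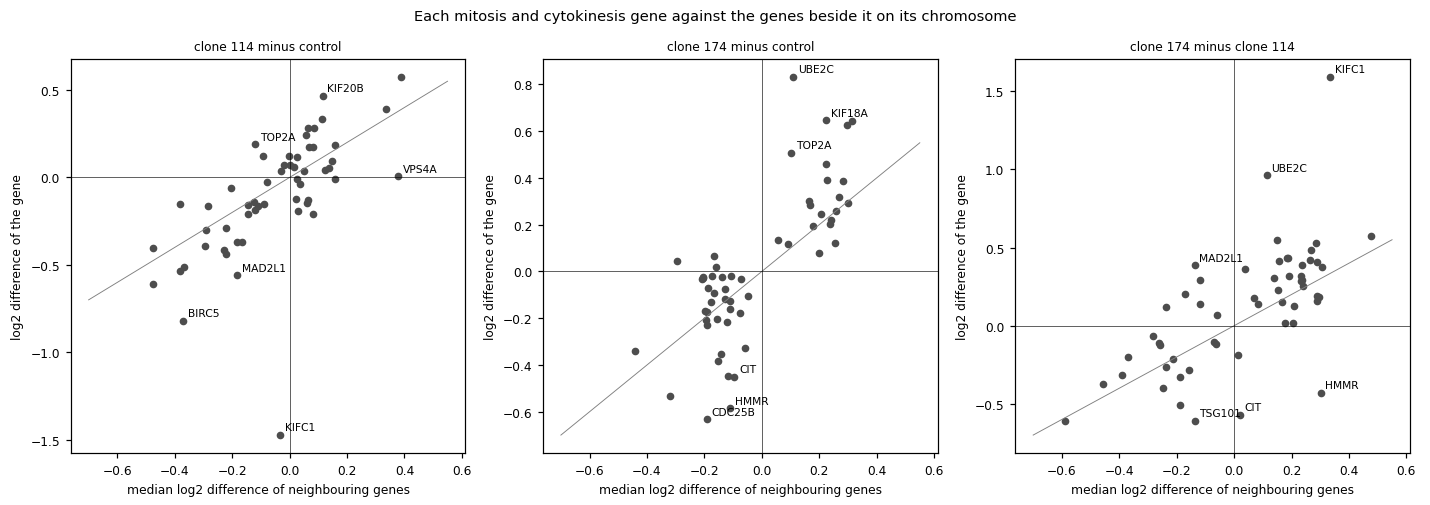
Log2 difference of each of the 55 genes (vertical axes) against the median log2 difference of its neighbours on the chromosome (horizontal axes), for clone 114 minus control, clone 174 minus control and clone 174 minus clone 114, 1 library each. The grey line marks equality, and the points spread along it with Pearson r of 0.65, 0.77 and 0.65, with KIFC1 and UBE2C far from it.

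Once the neighbours' median was subtracted, the SD across the 55 went from 0.34 to 0.26 in clone 114, from 0.32 to 0.21 in clone 174 and from 0.40 to 0.30 between the clones. Lower in both clones were then 13 (23.6%) and higher in both 15 (27.3%), against 29.8% and 29.8% of all genes. BIRC5 stayed 0.45 below its neighbours in clone 114 and 0.23 below in clone 174, and CDC20 was 0.19 and 0.21 below, while MAD2L1 was 0.38 below in clone 114 and level with them in clone 174. CDC25C was 0.13 and 0.33 below its neighbours. TOP2A was above its neighbours by 0.31 and 0.40, KIF18A by 0.20 and 0.42, and CENPF by 0.22 and 0.33.

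UBE2C stood farthest above its neighbours in clone 174, by 0.72. Farthest below in that clone were HMMR at -0.48 and CDC25B at -0.44. VPS4A, level with the control in clone 114, lay among neighbours that were higher there, so it was 0.37 below them. ANLN was 0.19 above its neighbours in clone 114 and 0.18 above in clone 174. Between the clones, UBE2C, KIFC1, HMMR and CIT differed by at least 1.5-fold beyond their neighbours (7.27%, background 13.1%). Clone 174 was above clone 114 beyond the neighbours for 35 of the 55 (63.6%, background 50.1%). That share was close to the one before the subtraction, while the median log2 difference between the clones went from 0.16 to 0.08.

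Level and length of the transcripts moved with the differences as well. By level, the 12 mitotic genes averaging over 100 FPKM had a median of -0.28 in clone 114, and of -0.08 in clone 174, beside -0.25 and -0.16 for all 825 genes that high. The 30 between 30 and 100 FPKM had -0.02 and -0.03, beside -0.12 and -0.09 for 2183 genes. By length, the 16 with a longest transcript under 2500 bases had -0.16 and -0.05, and the 13 of 5000 bases or more had 0.12 and 0.07, while all genes of those lengths had -0.11 and -0.10, and 0.06 and 0.01. Across the 55, length and difference had a Spearman correlation of 0.49 for clone 114 and 0.18 for clone 174, where all 11451 genes with a length had 0.18 and 0.13. The part of level or length in any single gene's value was not tested.

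The promoter motifs can be set beside these values. The 31 genes with a CHR had a median of 0.04 for clone 114 and of -0.02 for clone 174, and 11 were lower and 12 higher in both clones. Those without one, 16 genes, had medians of -0.25 and -0.17, and 9 were lower and 1 higher in both; with equal sums these counts were 3 and 20 with a CHR and 6 and 2 without. Among the 9 without a CHR that were lower in both are CCNB1, CCNA2, CDC25C, PTTG1 and KIF20A. CCNB1, CDC25C, PTTG1 and KIF20A lie on chromosome 5 and CCNA2 on chromosome 4, whose tested genes had a median of -0.17 in clone 114. A gene counted as without a CHR may still have one at another start or in a spelling that was not searched. No test was run on this split.

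Further genes of the same machinery were read from 7 lists, and limma called 0 genes of any list, where the background was 10 of 12577 genes (0.0795%). Among all tested genes 31.8% were lower and 26.1% higher in both clones. The medians given here are of each gene's mean log2 difference over the clones, which was -0.02 for all tested genes. Of 17 APC/C genes 5 were lower and 4 higher in both clones (median -0.02), of 31 kinetochore and centromere genes 12 and 5 (median 0.03), and of 20 condensin and cohesin genes 5 and 4 (median 0.01). Among 22 spindle motor and microtubule nucleation genes 9 were lower and 4 higher (median -0.07), and among 17 ESCRT-III and abscission genes 3 and 5 (median 0.01). The 11 DREAM, MuvB and MYBL2 genes gave 4 and 4 (median 0.02), and the 18 other regulators of mitotic entry and exit 4 and 2 (median -0.06). A median near 0 can hide opposite clones. In clones 114 and 174 the medians were -0.12 and 0.09 for APC/C, and 0.04 and -0.07 for condensin and cohesin. They were -0.06 and 0.12 for ESCRT-III and abscission, and 0.12 and -0.07 for DREAM, MuvB and MYBL2. The other lists had both medians below 0. With equal summed FPKM the median of each list was above 0, as was that of all genes at 0.11.

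From each list the gene with the largest shared decrease and the one with the largest shared increase are given as FPKM in the control, clone 114 and clone 174. PKMYT1, the kinase that holds CDK1 inactive, was at 42.4, 26.9 and 18.3, the largest decrease in these lists (log2 -0.64 and -1.17), and its neighbours were at -0.17 and -0.22. NEK2, which separates centrosomes before mitosis, was at 23.4, 25.6 and 33.0. Of the APC/C, the catalytic subunit ANAPC11 was at 111, 70.1 and 80.8 and CDC26, a small subunit, at 8.90, 9.95 and 13.5. The inhibitory kinase and the activating phosphatases CDC25B and CDC25C were therefore all lower in both clones by the deposited scaling, and CDC25B turned in clone 114 with equal sums.

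CENPH, a constitutive centromere protein, was at 72.1, 50.9 and 54.5, and CENPN, of the same centromere network, at 21.4, 27.3 and 24.7. The cohesin loader NIPBL was at 18.1, 12.8 and 15.1, and NCAPD2, a condensin subunit, at 63.5, 75.6 and 80.9. KIF2A, a microtubule depolymerase, was at 44.7, 32.2 and 28.2, and NUMA1, which gathers microtubules at the poles, at 22.2, 28.2 and 28.3. The ESCRT-III genes CHMP4A and IST1 were at 35.0, 26.1 and 21.5 and at 30.6, 38.0 and 38.7. RBBP4, a MuvB subunit, was at 65.1, 50.7 and 54.9, and RBL2, the p130 pocket protein of DREAM, at 24.2, 39.4 and 29.03. Each had adjusted p = 1.00 in the limma fit. For most of these genes the chromosomal neighbours stood on the same side, as for CENPH (-0.37 and -0.15), NIPBL (-0.68 and -0.41) and RBL2 (0.31 and 0.38), while those of CHMP4A were at 0.02 in clone 114 and -0.50 in clone 174.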

How the data were processed

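Polyadenylated RNA of 3 HEK293 libraries was measured, 1 control and 2 partial KANK1-KO clones. Per the submitters' processing notes, cutadapt 2.10, HISAT2 2.2.1 and Cuffdiff 2.2.1 were used with hg19; the sources used here give neither settings nor annotation. Deposited were FPKM per library, made by the authors (26237 rows, of which 28 held dates in place of symbols and were left out; septin genes are among the symbols that spreadsheets turn into dates) and, by the authors, log2 ratios of clone to control per clone, used only as an alternative. FPKM are not counts, so no count model was used.

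The test was limma 3.58.1 (R 4.3.3) on log2(FPKM + 1), over genes averaging 1 FPKM or more (eBayes with trend, Benjamini-Hochberg at 0.05; 1 residual and 8.80 prior degrees of freedom), and the fit and the neighbour step were tested on simulated data. Depth was estimated from steps in low FPKM, sought between 0.05 and 0.07 FPKM for 1 kilobase, of single-transcript genes of at least 1500 bases; only 70.1% to 72.2% of low values were within 0.1 of a whole fragment, so no counts were recovered. Neighbours and promoters came from RefSeq on GRCh38.p14, in order or as listed, and no coordinates were converted. Genes with full statistics were the 4 largest shared decreases and the 4 largest shared increases, ranked by the smaller of the 2 clones' log2 differences, and the 4 largest differences between the clones among the 55, and KANK1; any of the 55 could be named, and other lists gave 1 gene each way. The genes and lists were chosen with earlier results of these data known. Alternatives were the pseudocount, the filter, 3 scalings, no trend, leaving out a clone, a 2-fold limit, folds without a pseudocount, the authors' ratios, neighbour subtraction and leaving out KIFC1.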

Additional observations from a re-analysis of the deposited data

How the results depend on the processing

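Under every fit tried, limma called 0 of the 55 genes, with the lowest unadjusted p between 0.0844 and 0.147. With equal summed FPKM the median log2 difference was 0.127, with 10 genes lower and 28 higher in both clones (all genes 17.9% and 41.4%); with quantile normalization it was 0.0787, with 13 lower and 23 higher (all genes 29.1% and 26.9%), and the cause was not tested. With 1 clone left out, the median ran from -0.0618 to -0.0235, the genes lower than the control from 31 to 32 and those higher from 23 to 24, counts larger because only 1 clone has to agree in side. At 2-fold in place of 1.5-fold, 1 gene passed in clone 114, 0 in clone 174 and 1 between the clones. With a pseudocount of 0.1 or none, 4 genes passed 1.5-fold in clone 114, 6 in clone 174 and 6 between the clones. Folds without a pseudocount, neighbour subtraction and leaving out KIFC1 were chosen after seeing the data: after subtraction 13 genes were lower in both, and 1 gene passed 1.5-fold in clone 114 and 1 in clone 174; without KIFC1 no count moved by more than 1.5 times. For the named genes, 131 of 138 alternatives kept the direction and 7 reversed it. Much of this tally was fixed in advance. The filters and the fit without trend leave a gene's difference unchanged. Shared decreases and increases were picked for having both clones on the same side, so leaving out a clone could not turn them. Equal sums and centring raise the clones, so they could not turn a shared increase. Leaving out either clone gave -1.47 to 0.12 for KIFC1, -0.13 to 0.83 for UBE2C, -0.33 to 0.28 for TSG101 and -0.033 to 0.58 for ANLN. TSG101 was 0.13 with equal sums, 0.08 with quantile normalization and 0.0051 with centring on the median of all genes. For TSG101 under the scalings the cause was not tested. Among the 55, few fragments limit the value of KIFC1. No paired analysis was possible because the control group holds 1 library.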
